A study of Mus musculus with 20 samples.

Results

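The genes described here are those whose annotated start lies within 20 Mb of Ptprc on mouse chromosome 1, between positions 118062861 and 158062861 of build GRCm38 in the GENCODE M21 annotation. Ptprc, which encodes the CD45 phosphatase, lies at 138062861 to 138175708 on the minus strand. Of 379 annotated genes in the window, 178 had at least 10 reads in 2 or more libraries of the transfer experiment and were taken as members, out of 14371 genes in the whole table that met the same read minimum. They comprised 163 protein-coding genes, 5 processed transcripts, 4 processed pseudogenes, 3 long intergenic RNAs, 2 antisense RNAs and 1 transcribed processed pseudogene. At the read minimum, E330020D12Rik, Etnk2, Gpr39 and Inhbb were just inside, with 10 or 11 reads in their second-highest library, and Acmsd, Cdk18, Gm26781, Hmcn1, Prelp, Thsd7b and Tnni1 were just outside with 8 or 9. The window was proposed from genotype differences seen before transfer, in colon and in naive cells of these same libraries. Genotype values in those groups are therefore given as a description, without p-values, and nothing is read from how many members passed a threshold there.

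The study sequenced RNA from mouse Th17-type CD4+ cells that had or lacked Il6ra, which encodes the ligand-binding chain of the IL-6 receptor, in 20 libraries. In the transfer part, Il6ra-/- Il17f/Thy1.1 reporter cells carried the CD45.2 allele and wild-type Il17f/Thy1.1 reporter cells carried CD45.1. Naive cells of both kinds were cultured for 6 days in 2.5 ng/ml TGF-beta plus 20 ng/ml hyper-IL-6. Hyper-IL-6 joins the cytokine to the soluble form of its receptor and so signals also in cells that lack Il6ra. Reporter-positive cells were sequenced before transfer, as 2 Il6ra-/- and 2 wild-type libraries, and 200000 cells of each kind were placed together into Rag1-/- hosts, which make no T or B cells. After 4 weeks, CD4+ cells bearing the T cell receptor beta chain were sorted from the colon by CD45 allele, as 3 Il6ra-/- and 3 wild-type libraries made from pools. Colon cells were not gated on the reporter. In the culture part, with 2 libraries per group, the groups were Il6ra-/- and wild-type cells cultured in 2.5 ng/ml TGF-beta plus 63 ng/ml hyper-IL-6, wild-type cells cultured in TGF-beta plus 20 ng/ml IL-6, and Il6ra-/- and wild-type naive cells. All 10 culture libraries were labelled as stimulated with PMA and ionomycin for 4 h and as IL-17F/Thy1.1 Hz, with no CD45 allele given, and the cultured ones had been grown for 6 days on irradiated antigen-presenting cells. Every library was labelled C57BL/6. In the transfer part genotype and CD45 allele were the same split of the libraries, so the effects of the Il6ra deletion, of the CD45 allele and of other sequence carried with that allele cannot be told apart.

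CD45 is a receptor-type tyrosine phosphatase of all blood cells except mature red cells and platelets, and it sets the threshold of T cell receptor signalling by removing an inhibitory phosphate from the kinase Lck. Its CD45.1 and CD45.2 alleles are told apart by antibodies, which makes them the usual tag for mixing cells of different origin in one host. C57BL/6 mice with CD45.1 are congenic animals, bred by backcrossing the allele from the SJL strain, and such animals keep a stretch of donor chromosome on either side of the selected gene. The window also holds a cluster of RGS genes, whose products switch off G protein signalling below chemokine receptors, the chemokine receptor gene Cxcr4, a cluster of complement regulators, and genes of the p53 response such as Mdm4.

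Il6ra itself, by the labels deleted in one genotype, had 4.85, 3.46 and 2.53 CPM (depth-scaled counts, TMM-normalized within each part) in colon libraries labelled Il6ra-/-, against 10.7, 4.32 and 5.40 CPM in wild-type colon libraries. Before transfer it had 80.6 and 123 CPM in libraries labelled Il6ra-/-, against 84.2 and 72.8 CPM in wild-type ones, and in the culture part between 31.8 and 213 CPM in libraries labelled Il6ra-/-, against 39.2 to 421 CPM in wild-type libraries of the same states. Gene-level counts do not show which exons were read, so reads outside a deleted part would still count, and they do not check the labels; Il6ra-/- below means a library so labelled. Transfer libraries held 12718633 to 23745060 gene counts each, and culture libraries held 20160774 to 46848016. Summed CPM of 8 fixed CD4 T cell markers lay between 3939 and 6852 in the transfer libraries. Summed CPM of 14 epithelial markers was 453, 236 and 203 in Il6ra-/- colon libraries 0, 1 and 2, against 923, 310 and 246 in wild-type colon libraries 0, 1 and 2. Before transfer the same sum was 207 and 520 in Il6ra-/- libraries, against 213 and 432 in wild-type ones. Only wild-type colon library 0 exceeded those values, so the sum alone does not measure epithelial RNA in colon. For 16 myeloid markers the sum was 307, 764 and 628 in Il6ra-/- colon libraries and 419, 785 and 527 in wild-type ones. Before transfer it lay between 113 and 227. The 9 measured genes of a CD8, NK and gamma-delta T marker list, none at 0 in colon, summed to 556, 456 and 589 in Il6ra-/- colon libraries, against 286, 258 and 358 in wild-type colon libraries, without overlap. Their part in the colon values below was not tested. Earlier work on these data doubted 2 wild-type libraries, number 1 before transfer and number 2 from the colon, and counts without both are given beside the results they change. These are bulk samples, so fewer cells of a type and less RNA per cell cannot be told apart.

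Promoter sequences are shown for 4 members whose levels are described below and that RefSeq lists. Each is the 250 bases before the RefSeq gene start on chromosome 1 of GRCm38.p6, read 5′ to 3′ on the gene's strand, and capitals mark GC boxes (GGGCGG or, on the other strand, CCGCCC). Nav1 is on the minus strand at chr1:135585356-135585605, Lad1 on the plus strand at chr1:135818348-135818597, Rgs16 on the plus strand at chr1:153740103-153740352 and Npl on the minus strand at chr1:153549715-153549964. The Nav1 window lies inside the GENCODE span of Nav1 given below. It precedes a RefSeq start within that span and not the 5′ end of the GENCODE gene.
Nav1: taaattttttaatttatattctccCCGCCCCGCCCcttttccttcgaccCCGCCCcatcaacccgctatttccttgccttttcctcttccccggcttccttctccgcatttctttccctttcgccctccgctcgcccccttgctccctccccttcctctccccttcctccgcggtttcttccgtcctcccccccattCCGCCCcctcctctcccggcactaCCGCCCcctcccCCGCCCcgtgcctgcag
Lad1: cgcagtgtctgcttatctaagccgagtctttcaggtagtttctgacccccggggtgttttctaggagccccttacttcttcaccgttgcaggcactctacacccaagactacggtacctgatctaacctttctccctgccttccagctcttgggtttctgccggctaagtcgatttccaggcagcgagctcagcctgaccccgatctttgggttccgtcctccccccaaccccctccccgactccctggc
Rgs16: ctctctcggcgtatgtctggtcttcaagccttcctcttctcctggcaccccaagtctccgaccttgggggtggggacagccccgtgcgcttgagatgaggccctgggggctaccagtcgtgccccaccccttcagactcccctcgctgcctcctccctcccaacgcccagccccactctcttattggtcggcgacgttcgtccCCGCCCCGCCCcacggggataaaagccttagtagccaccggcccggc
Npl: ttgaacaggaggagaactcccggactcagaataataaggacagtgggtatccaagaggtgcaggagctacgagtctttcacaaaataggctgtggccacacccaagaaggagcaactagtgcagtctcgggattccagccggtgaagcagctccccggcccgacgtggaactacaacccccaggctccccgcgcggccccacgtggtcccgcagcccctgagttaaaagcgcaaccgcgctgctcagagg
Nav1 had 6 GC boxes and Rgs16 had 2, counting overlapping matches, while Lad1 and Npl had 0 in these windows. A GC box was present in 32.9% of the 27025 promoter windows of this length in the table, and in 75 (52.4%) of the 143 members that had an entry. The members were kept for having reads and the other windows were not, so these shares are not like for like. Ctse and Ptprv are named only.

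Ptprc itself was read at a high level in every library. It had 3309, 2867 and 2812 CPM in Il6ra-/- colon cells, against 2385, 2347 and 2641 CPM in wild-type colon cells. Before transfer it had 1342 and 1883 CPM in Il6ra-/- cells, against 1288 and 827 CPM in wild-type cells. The Il6ra-/- values were above the wild-type ones in both stages without overlap, by log2 0.29 ± 0.22 in colon and 0.61 ± 0.27 before transfer (log2 fold change ± SE), and Ptprc did not pass the threshold in either. In the culture part it had 1020 and 880 CPM in Il6ra-/- and 932 and 944 CPM in wild-type hyper-IL-6 cultures, 887 and 935 CPM with IL-6, and 2665 and 2660 CPM in Il6ra-/- and 2969 and 2766 CPM in wild-type naive cells. Ordered by group mean within the transfer part, Ptprc was highest in Il6ra-/- colon cells (2996 ± 272 CPM, SD, n = 3), then wild-type colon cells (2458 ± 160, n = 3), Il6ra-/- cells before transfer (1613 ± 383, n = 2) and wild-type cells before transfer (1057 ± 326, n = 2). The means of the last 2 groups differed by less than the sum of their SDs, although their single values did not overlap. In the culture part the order was wild-type naive (2868 ± 144), Il6ra-/- naive (2663 ± 3.53), then Il6ra-/- with hyper-IL-6 (950.0 ± 99.2), wild type with hyper-IL-6 (938 ± 8.35) and wild type with IL-6 (911 ± 34.1 CPM, SD, n = 2 each), where the 3 cultured groups did not differ beyond their spread.

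**Figure D1:**
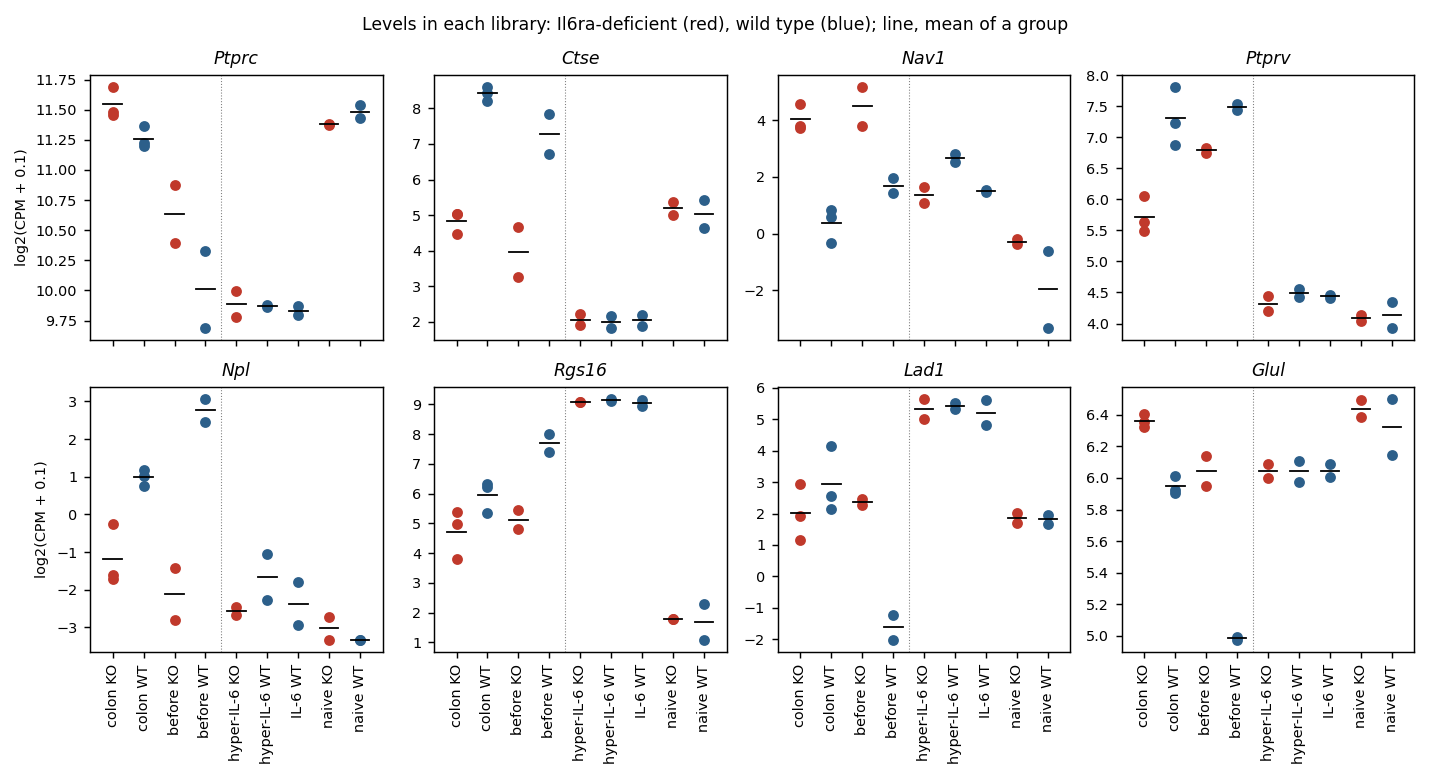
Levels of 8 members in each library as log2(CPM + 0.1), with Il6ra-deficient libraries in red, wild-type libraries in blue and a line at each group mean. The dotted line separates the transfer part on the left from the culture part on the right, which were scaled separately. Ctse lies between 21.8 and 32.9 CPM in the Il6ra-deficient colon libraries and between 295 and 391 CPM in the wild-type ones, while its naive and hyper-IL-6 values are alike in both genotypes.

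Of the 178 members, 175 passed the filter on low counts in the transfer part and were tested. In colon cells, 4 of these 175 passed an adjusted p of 0.05 between the genotypes, where 0.155% of all 14225 genes passed: Nav1 and Gm4793 were higher and Ctse and Ptprv lower in Il6ra-/- cells. Ctse encodes cathepsin E, an aspartic protease of endosomes. It starts at 131638306 and ends at 131675505 on the plus strand. It had 21.8, 32.4 and 32.9 CPM in Il6ra-/- colon cells, against 295, 348 and 391 CPM in wild-type colon cells, a log2 fold change of -3.57 ± 0.40. Wild-type colon library 0, with the highest epithelial marker sum, had the lowest of these wild-type Ctse values. The part of epithelial RNA in Ctse was not tested. Nav1, at 135434580 to 135607295 on the minus strand, encodes neuron navigator 1, a microtubule-associated protein. It had 23.9, 13.01 and 13.9 CPM in Il6ra-/- colon cells, against 1.41, 1.69 and 0.692 CPM in wild-type colon cells, a log2 fold change of 3.72 ± 0.48.

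Gm4793 is an annotated antisense RNA inside Nav1 on the opposite strand. It had 3.47, 1.56 and 3.08 CPM in Il6ra-/- colon cells and no read in the 3 wild-type colon libraries, so it was at least 46.1-fold higher, taking 3 reads over the wild-type group as the floor. The sources used here do not give the strand setting of the counting, so reads of Gm4793 and Nav1 may not be fully separated. Ptprv, listed as a processed transcript related to a receptor-type phosphatase, had 66.1, 44.8 and 49.6 CPM in Il6ra-/- colon cells, against 225, 150 and 118 CPM in wild-type colon cells. Its log2 fold change was -1.62 ± 0.25, and it overlaps the antisense gene Gm10535, which had 73 reads over all libraries. The genotype groups did not overlap for any of these 4 members, as for 15.8% of all genes in colon. The 4 were picked by passing on these same values, so nothing is read from that.

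Libraries with the same number were taken as pairs within a stage, and with the number as a block 5 members passed in colon, where 0.661% of all genes did. Ctse, Nav1 and Ptprv passed again, Gm4793 did not, and Rgs16 and B3galt2 passed in addition, both lower in Il6ra-/- cells. Rgs16, a brake on G protein signalling, had 13.9, 31.2 and 41.8 CPM in Il6ra-/- colon cells, against 40.5, 75.2 and 79.7 CPM in wild-type colon cells, lower in each of 3 pairs although the groups overlapped. B3galt2, a galactosyltransferase gene, had 13, 10.6 and 9.72 CPM in Il6ra-/- colon cells, against 60.6, 47.5 and 43.5 CPM in wild-type colon cells, without overlap. It overlaps Cdc73 on the opposite strand, a gene with many more reads, so its counts are uncertain. The colon calls rested on all 6 libraries: 0 members passed when any 1 of the 3 Il6ra-/- libraries or of wild-type libraries 1 and 2 was left out, 1 passed without wild-type library 0, and 2 passed without both doubted libraries, among 23 genes in all. DESeq2 called 9 members, where it called 0.919% of all genes.

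Before transfer, 0 of 175 members passed in edgeR's quasi-likelihood test, where 0.00703% of all genes (1 gene) passed. At an unadjusted p under 0.05 there were 24 members (2.43% of all genes), and DESeq2 called 8 (0.105% of all genes). With the block within the stage, 3 passed, where 0.0351% of all genes did: Ctse and Rgs16 were lower and Lad1 higher in Il6ra-/- cells. Ctse had 9.40 and 25.3 CPM in Il6ra-/- cells, against 106 and 228 CPM in wild-type cells. Rgs16 had 43.6 and 27.8 CPM in Il6ra-/- cells, against 258 and 168 CPM in wild-type cells. Lad1, which encodes ladinin, an anchoring filament protein of basement membranes, had 4.74 and 5.38 CPM in Il6ra-/- cells, against 0.329 and 0.149 CPM in wild-type cells. In colon, Lad1 had 7.63, 3.71 and 2.12 CPM in Il6ra-/- cells and 17.7, 5.79 and 4.29 CPM in wild-type cells, highest in library 0 of both genotypes, as the epithelial marker sum was. With 2 libraries a group, leaving out 1 changed this comparison most. The largest count came without wild-type library 0, where the lone remaining library is assumed to vary like the other groups. That library is number 1, which earlier work doubted, so nothing is read from that count.

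Averaged over both stages, again a description because both were used to propose the window, 6 of 175 members passed, where 0.12% of all genes passed. Nav1, Glul and Gm4793 were higher and Ctse, Npl and Gm5532 lower in Il6ra-/- cells. Npl encodes N-acetylneuraminate pyruvate lyase, which breaks down sialic acid. It had 0.231, 0.741 and 0.205 CPM in Il6ra-/- colon cells, against 2.18, 1.60 and 1.94 CPM in wild-type colon cells, and 0.272 and 0.0427 CPM in Il6ra-/- cells before transfer, against 8.31 and 5.40 CPM in wild-type cells before transfer. Gm5532, a long intergenic RNA, had 0.173, 0.165 and 0.411 CPM in Il6ra-/- colon cells, against 5.77, 4.01 and 2.42 CPM in wild-type colon cells, and it was likewise lower before transfer, with 0 and 0.128 CPM in Il6ra-/- cells against 1.503 and 1.34 CPM in wild-type cells. Npl, Gm5532 and Gm4793 are low-level genes that cleared the filter through the genotype in which they are high. Glul encodes glutamine synthetase. It had 79.9, 84.6 and 81.7 CPM in Il6ra-/- colon cells, against 64.3, 60.5 and 59.9 CPM in wild-type colon cells, and 61.7 and 70.4 CPM in Il6ra-/- cells before transfer, against 31.8 and 31.4 CPM in wild-type cells before transfer.

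The averaged log2 fold changes were -3.42 ± 0.32 for Ctse, 3.35 ± 0.37 for Nav1, -3.83 ± 0.53 for Npl, -4.18 ± 0.61 for Gm5532 and 0.74 ± 0.12 for Glul. With the block within the stage, 7 members passed, where 0.211% of all genes did: Ctse, Nav1, Npl and Gm5532 again, and Rgs16, B3galt2 and Ptprv, while Glul and Gm4793 no longer passed. Without both doubted libraries 1 member, Ctse, passed, among 4 genes in all. DESeq2 called 11, where it called 0.461% of all genes. The difference between the stages passed for 0 of 175 members and for 0.0% of all genes, and 12 members had an unadjusted p under 0.05 (2.65% of all genes). DESeq2 called 1, Lad1, where it called 0.0945% of all genes. Rgs8, another RGS gene, stood out before transfer with 0.194 and 0.256 CPM in Il6ra-/- cells, against 6.43 and 15.2 CPM in wild-type cells, but had at most 0.579 CPM in any colon library. BC034090 had 1.68, 0.412 and 0.685 CPM in Il6ra-/- colon cells, against 0, 0 and 0.208 CPM in wild-type colon cells, and 0.971 and 2.31 CPM in Il6ra-/- cells before transfer, against 0.0470 and 0.0991 CPM in wild-type cells before transfer.

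**Figure D2:**
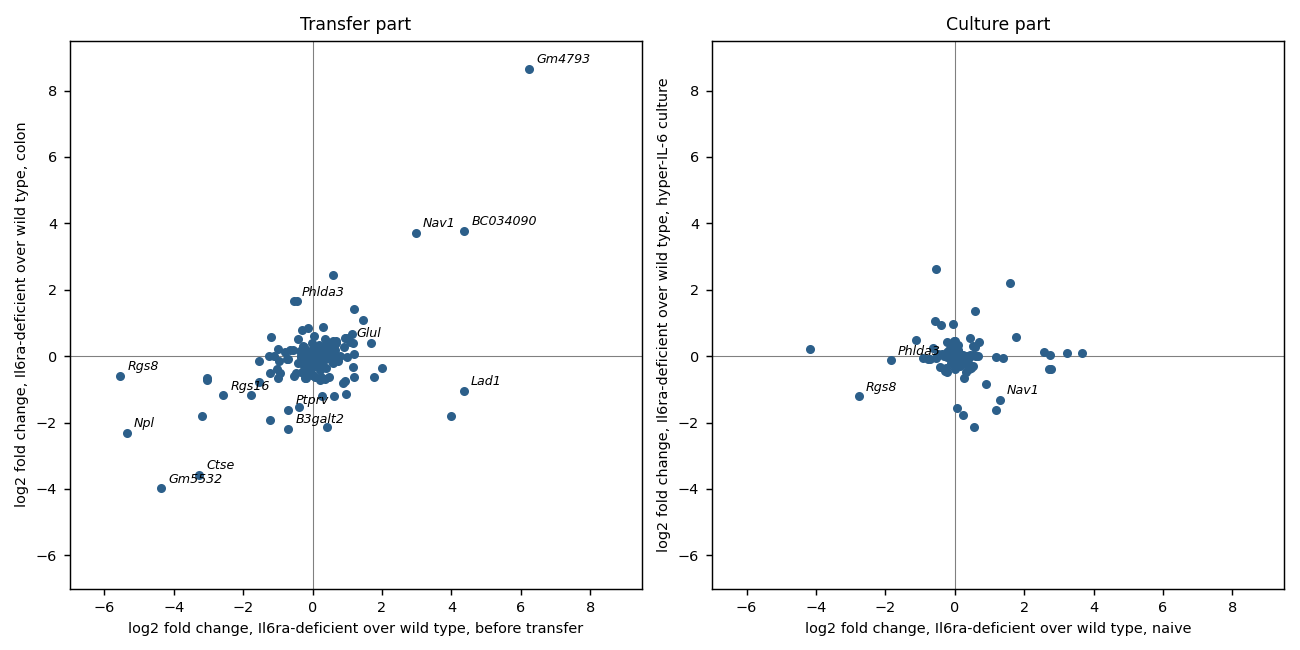
Fitted log2 fold change of Il6ra-deficient over wild-type cells for each member tested, colon against before transfer in the left panel and hyper-IL-6 culture against naive in the right panel. Names mark members picked after their values were seen, where the log2 size passed 1 on either axis. Ctse, at -3.57 and -3.27, and Nav1, at 3.72 and 2.98, lie far out in the same direction in both transfer stages, and the fitted value of Gm4793, which has no wild-type read, is not a bound.

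Genotype groups did not overlap for 42 of 175 members in colon (15.8% of all genes) and 49 before transfer (16.4% of all genes). Those that did not overlap in the same direction in both stages numbered 16 of 175 (9.14%), where 1.89% of all genes tested had this pattern. These are the libraries the window was proposed from, so nothing is read from that share. Among those higher in Il6ra-/- cells were Ptprc, Nav1, Gm4793, the kinase gene Dstyk, the ubiquitin ligase adaptor gene Klhl12, the myosin phosphatase subunit gene Ppp1r12b, the aminopeptidase gene Rnpep, Gm15445, Glul and BC034090. Lower were Ctse, Ptprv, Npl, Gm5532 and Sox13, a transcription factor gene.

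By position, 2 of these 16 genes lay between 10 and 5 Mb below the Ptprc start, where 36 members were tested. Within 5 Mb below it lay 8 of 48 tested, and within 5 Mb above it 1 of 7 (Ptprc itself). Between 15 and 20 Mb above it lay 5 of 31 tested. These positions come from the libraries that proposed the window, and Gm4793 lies inside Nav1, so nothing is read from them. None lay between 5 and 15 Mb above Ptprc, where 26 members were tested, or beyond 10 Mb below it, where 27 were tested. Nav1 and Ctse start 2.63 and 6.42 Mb below Ptprc, and Npl, Rgs16, Glul and Gm5532 start 15.4, 15.7, 15.8 and 17.5 Mb above it. The median size of the averaged log2 fold change was taken in steps of 5 Mb, from 20 Mb below Ptprc to 20 Mb above it. In that order it was 0.24, 0.12, 0.28, 0.37, 0.34, 0.18, 0.16 and 0.24. Over all members it was 0.28 and over all genes tested 0.16. A trend with distance was not tested, and nothing is read from these medians.

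**Figure D3:**
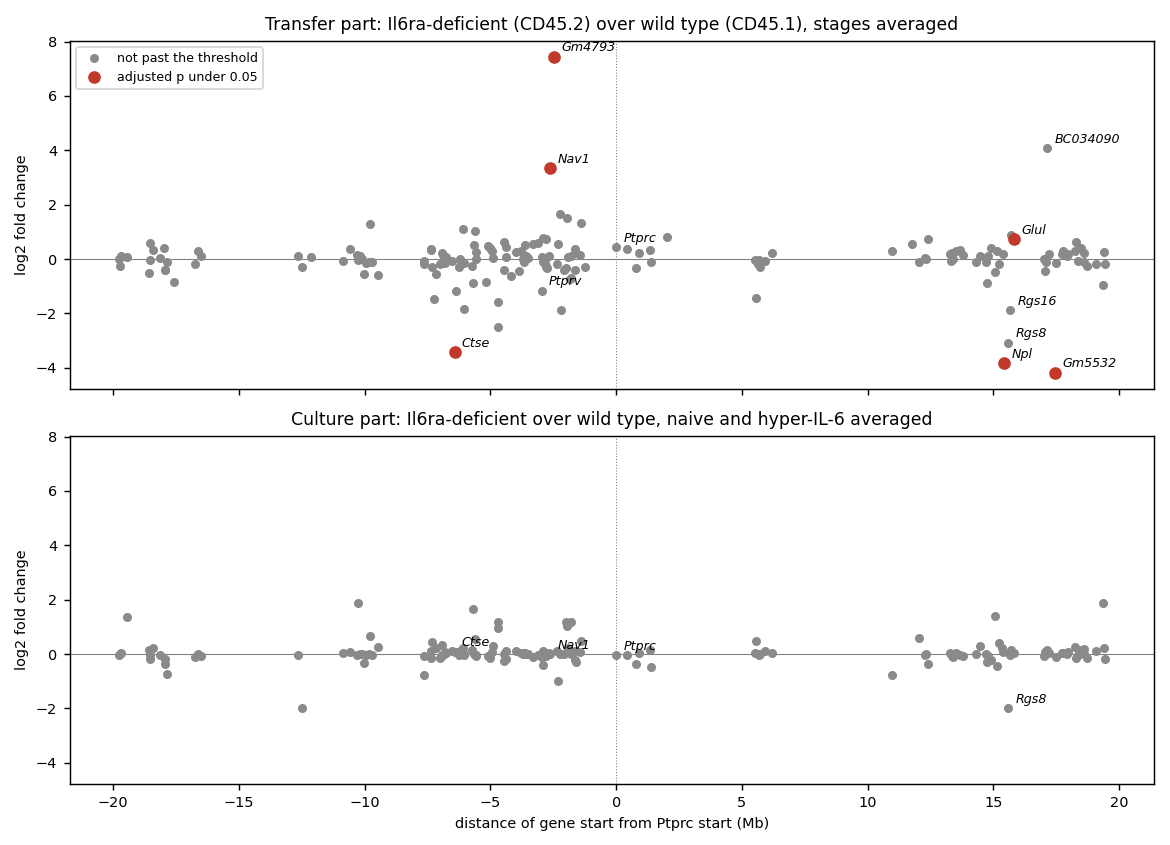
Log2 fold change of Il6ra-deficient over wild-type cells for each member against the distance of its start from the Ptprc start in Mb, averaged over stages in the transfer part (top) and over naive and hyper-IL-6 cells in the culture part (bottom), on the same scale. Red points passed an adjusted p of 0.05. The 6 red points in the top panel lie between 6.42 Mb below and 17.5 Mb above Ptprc, and the bottom panel has none.

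In the culture part 159 members were tested, and no member passed between the genotypes in edgeR's quasi-likelihood test. In naive cells 0 of 159 passed, where 0.0067% of all 14926 genes (1 gene) passed, 9 had an unadjusted p under 0.05 (10.4% of all genes), and DESeq2 called 1, the p53 target gene Phlda3 (0.822% of all genes). The description under which the window was proposed also named naive cells, and with 1 gene in all past the threshold there nothing is read from the 0. In hyper-IL-6 cultures, a contrast that was not used to propose the window, 0 members passed in edgeR, where 0.0% of all genes did, 4 had an unadjusted p under 0.05 (2.35% of all genes) and DESeq2 called 0 (0.0126% of all genes). Averaged over both, 0 passed in edgeR, as did 0.0% of all genes, 3 had an unadjusted p under 0.05 (4.61% of all genes) and DESeq2 called 0 (0.0895% of all genes). The change of the genotype difference between naive and cultured cells passed for 0 members in edgeR, as for 0.0% of all genes, with 17 at an unadjusted p under 0.05 (8.49% of all genes) and 0 in DESeq2 (0.398% of all genes). Groups of 2 against 2 failed to overlap in 54 of 159 members in naive cells (37.5% of all genes) and 45 in hyper-IL-6 cultures (31.2% of all genes). In both, and in the same direction, they did so for 4 members, Csrp1, 2310009B15Rik, Prg4 and Ralgps2 (3.9% of all genes), none of which is among the 16 of the transfer part.

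Ctse, whose genotype groups did not overlap in either transfer stage, and Rgs16, whose groups did not overlap before transfer but did in colon, had like values in both genotypes here. Ctse had 31.9 and 41.4 CPM in Il6ra-/- naive cells, against 24.6 and 43.1 CPM in wild-type naive cells, and 4.56 and 3.62 CPM in Il6ra-/- hyper-IL-6 cultures, against 3.48 and 4.40 CPM in wild-type ones. The difference in hyper-IL-6 cultures was log2 0.06 ± 0.28. Nav1 had 3.05 and 2.02 CPM in Il6ra-/- hyper-IL-6 cultures, against 5.67 and 6.90 CPM in wild-type ones (-1.31 ± 0.48, adjusted p = 1 in edgeR). In naive cells its difference was 1.29 ± 0.76, and averaged over naive and hyper-IL-6 cells it was -0.01 ± 0.90, so its direction was not the same in both cell states. Rgs16 had 540 and 547 CPM in Il6ra-/- hyper-IL-6 cultures, against 586 and 555 CPM in wild-type ones (-0.07 ± 0.19). A fit of all 20 libraries, added after the parts were seen to differ, set the averaged genotype difference of the transfer part against that of the culture part. In it 1 member, Ctse, passed, where 0.025% of all 15974 genes passed, with a difference of log2 -3.51 ± 0.39; DESeq2 called 6 members and 0.108% of all genes, and in edgeR 3.23% of all genes had an unadjusted p under 0.05. Nav1 differed by 3.36 ± 0.67 and Rgs16 by -1.84 ± 0.43 without passing. Its transfer side is the contrast that proposed the window, so these values are a description and nothing is read from the call. The parts also differed in hyper-IL-6 dose, in stimulation and in reporter gating, and these cannot be told apart from the CD45 allele, which the culture labels do not give.

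Set against cells before transfer, colon cells changed many members in both genotypes. In Il6ra-/- cells 50 of 175 members passed, 27 higher and 23 lower in colon, where 27.0% of all genes passed (13.8% higher, 13.2% lower). In wild-type cells 65 passed, 39 higher and 26 lower, where 32.9% of all genes passed (17.1% higher, 15.8% lower). The 2 comparisons have no library in common, and 39 members passed in both, 23 higher and 16 lower in colon, with none in opposite directions. The difference between the genotypes in these changes passed for no member, so passing in a single genotype is not read as a genotype difference. As a share of genes tested in both, higher in both made up 13.1% of members and 11.6% of all genes, and lower in both 9.14% of members and 10.4% of all genes. Of the 178 members, 126 stood in at least 1 role list and 52 in none. Without both doubted libraries 72 members passed in Il6ra-/- cells, among 5293 genes in all, and 48 in wild-type cells, among 3144 genes in all.

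In the list of receptors and adhesion molecules of immune cells, Ptprc rose in colon cells by log2 0.89 ± 0.26 in Il6ra-/- (adjusted p = 0.0254) and 1.22 ± 0.26 in wild-type cells (adjusted p = 0.0057). Of the 9 listed members tested 4 rose in Il6ra-/- cells, against 5 that rose and 1 that fell in wild-type cells. Those that rose include Pigr and the 1 that fell is Il24, so the counts are not of T cell surface molecules alone. Lax1, a membrane adaptor that dampens antigen receptor signals, had 248, 410 and 392.4 CPM in Il6ra-/- colon cells, against 39.1 and 63.3 CPM in Il6ra-/- cells before transfer, and rose by 2.77 ± 0.38 (adjusted p = 0.000424). In wild-type cells it had 181, 287 and 270 CPM in colon, against 28.6 and 50.8 CPM before transfer, a rise of 2.63 ± 0.37 (adjusted p = 0.000551). Gpr25, an orphan G protein-coupled receptor, also rose in both. Cd55, which protects cells from complement, rose in wild-type cells by 1.34 ± 0.30 (adjusted p = 0.00676) and was at 0.25 ± 0.29 in Il6ra-/- cells, and the difference between the genotypes did not pass. Il24, a cytokine gene, had 0.155 and 1.54 CPM in Il6ra-/- and 0.0470 and 3.62 CPM in wild-type cells before transfer and no read in the 6 colon libraries. Pigr, the epithelial receptor that carries IgA into the gut, had 78.9, 17.95 and 14.8 CPM in Il6ra-/- colon cells and 186, 29.4 and 37.5 CPM in wild-type colon cells, against at most 0.644 CPM before transfer. Pigr, Lad1 and Elf3, an epithelial transcription factor gene, were each highest in library 0 of both genotypes, as the epithelial markers were, and the part of epithelial RNA in them was not tested.

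The 4 RGS genes of the window that were tested differed in direction. Rgs1, which limits migration toward chemokines, had 1052, 1831 and 2399 CPM in Il6ra-/- colon cells, against 169 and 122 CPM in Il6ra-/- cells before transfer, a rise of 3.60 ± 0.51 (adjusted p = 0.000538). In wild-type cells it rose by 3.55 ± 0.50 (adjusted p = 0.000556). Rgs16 fell in wild-type colon cells by 1.71 on the log2 scale, SE 0.43 (adjusted p = 0.0121), and Rgs8 also fell. In Il6ra-/- cells Rgs16 was at -0.30 ± 0.43 and Rgs8 at -0.25 ± 1.17, and the difference between the genotypes did not pass for either. Their wild-type values before transfer also entered the genotype differences that proposed the window, so these falls are a description. Rgs2 did not pass in either. Of 8 RGS genes tested outside the window, Rgs3, Rgs5 and Rgs14 rose and Rgs11 and Rgs12 fell in colon cells of both genotypes.

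Of the 12 p53, cell cycle and growth arrest genes, 2 rose and 3 fell in Il6ra-/- colon cells, against 3 that rose and 2 that fell in wild-type colon cells. Over all genes, for this and every other list, 13.8% rose and 13.2% fell in Il6ra-/- colon cells, against 17.1% and 15.8% in wild-type ones. The list's median log2 fold change was -0.23 in Il6ra-/- and 0.12 in wild-type colon cells, with the medians of all genes at -0.00216 and -0.0196. Btg2, an antiproliferative p53 target, had 415, 480 and 577 CPM in Il6ra-/- colon cells, against 80.9 and 166 CPM in Il6ra-/- cells before transfer, a rise of 1.99 ± 0.35 (adjusted p = 0.00192), and rose by 1.84 ± 0.34 in wild-type cells (adjusted p = 0.00276). Ier5, an immediate early gene, rose by 1.82 ± 0.34 in Il6ra-/- cells (adjusted p = 0.00271) and 1.62 ± 0.33 in wild-type cells (adjusted p = 0.00465). Phlda3, a p53-induced inhibitor of Akt, fell in both. The mitotic genes Aspm and Kif14 fell in Il6ra-/- cells, at -1.44 ± 0.44 and -1.36 ± 0.33. In wild-type cells they were at -0.81 ± 0.44 and -0.80 ± 0.34 without passing, and the difference between the genotypes did not pass.

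Kdm5b, a histone demethylase gene, fell by 1.59 on the log2 scale in Il6ra-/- colon cells, SE 0.28 (adjusted p = 0.00207), and by 1.48 in wild-type colon cells, SE 0.28 (adjusted p = 0.00288), and of 11 chromatin and transcription genes 1 rose and 1 fell in Il6ra-/- cells, against 4 and 1 in wild-type cells. Dars, the aspartyl-tRNA synthetase gene, fell in both, among 14 RNA processing and translation genes. Among 10 cytoskeleton genes, Actr3, a subunit of the actin-nucleating Arp2/3 complex, rose in both. Arpc5 of the same complex rose by 0.85 ± 0.18 in Il6ra-/- cells and was at 0.46 ± 0.18 in wild-type cells without passing. Tor1aip1, a protein of the inner nuclear membrane, rose in both by 1.34 ± 0.23 in Il6ra-/- cells (adjusted p = 0.00181) and 1.54 ± 0.23 in wild-type cells (adjusted p = 0.00084). Of 16 lipid, amino acid and redox genes 4 rose and 1 fell in Il6ra-/- cells, against 4 and 4 in wild-type cells, where Glul rose by 0.96 ± 0.17 (adjusted p = 0.00181). Glul was at 0.31 ± 0.16 in Il6ra-/- cells, and the difference between the genotypes did not pass. Its wild-type values before transfer also entered the genotype differences that proposed the window, so its rise is a description. Ptgs2, which encodes cyclooxygenase-2, rose in both. Of 16 kinase and phosphatase genes 2 rose and 3 fell in Il6ra-/- cells, against 2 and 2 in wild-type cells. Among 8 transporter genes the nucleotide sugar transporter family gene Slc35f5 fell in both, but not in wild-type cells without both doubted libraries (adjusted p = 0.119). None of the 8 protease and ubiquitin genes passed in either genotype.

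**Figure D4:**
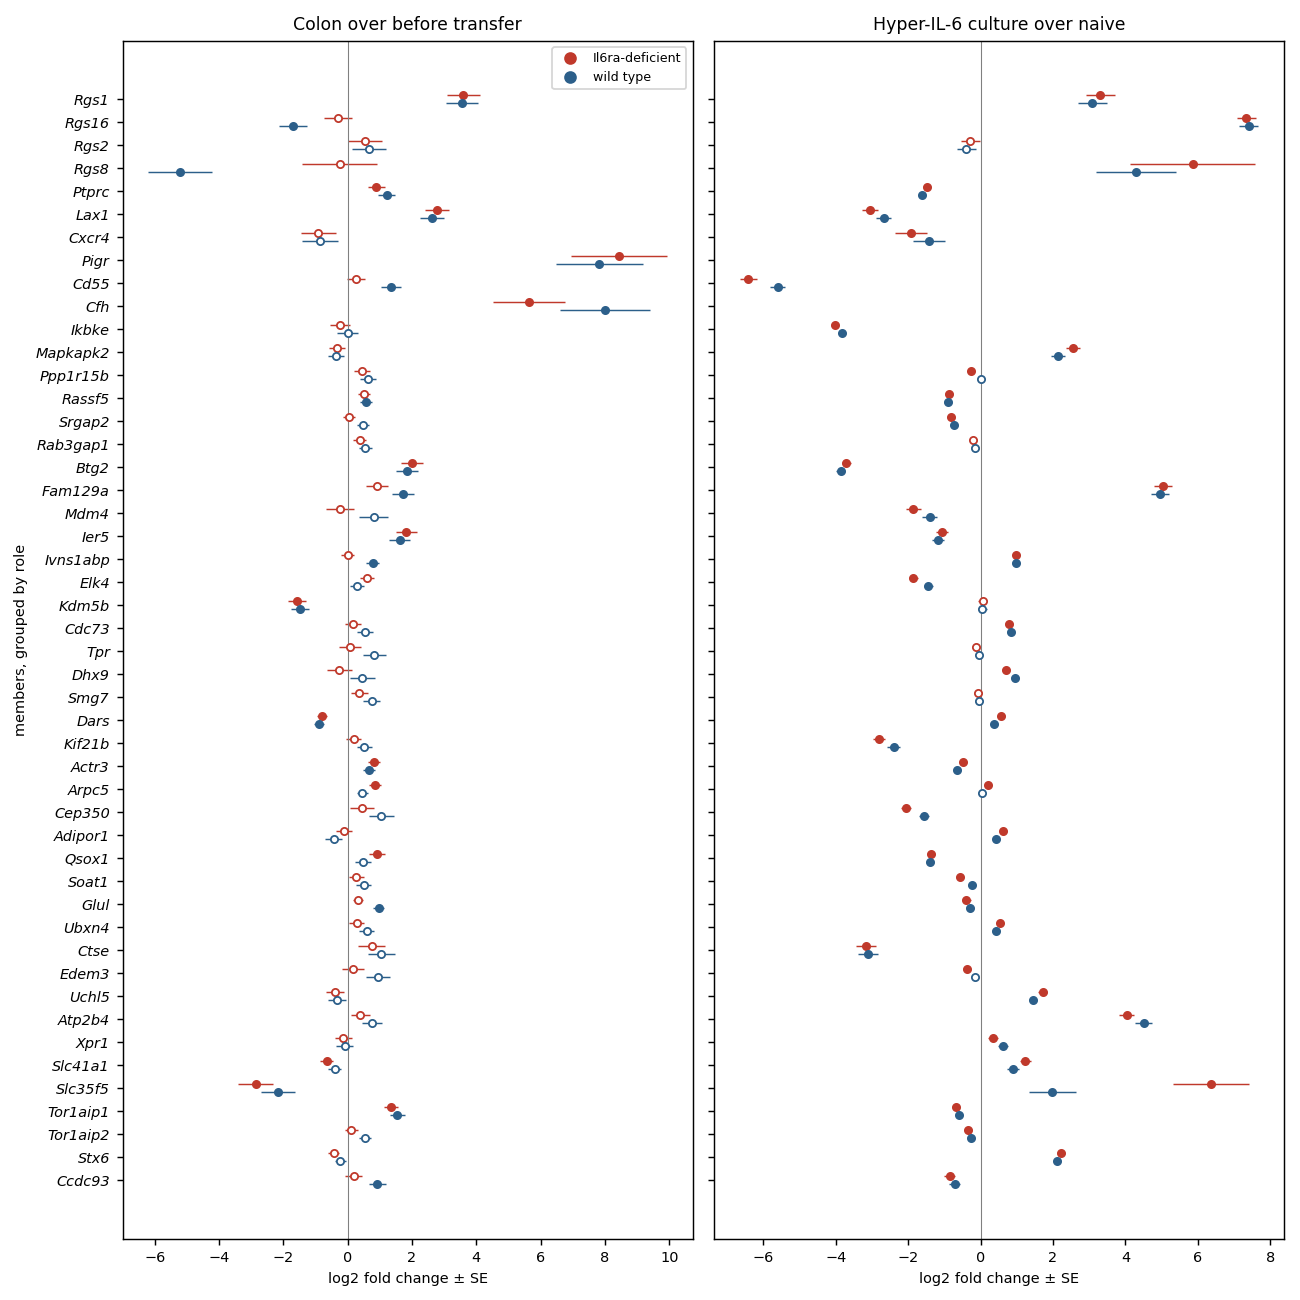
Log2 fold change ± SE of named members grouped by role, with Il6ra-deficient cells in red above wild-type cells in blue, for colon over before transfer (left) and hyper-IL-6 culture over naive (right). Filled points passed an adjusted p of 0.05 and open points did not. Btg2, Ier5, Lax1 and Ptprc lie to the right of 0 in the left panel and to the left of 0 in the right panel in both genotypes, and Rgs1 lies to the right in all 4.

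In the culture part, hyper-IL-6 cultures differed from naive cells in most members. In Il6ra-/- cells 118 of 159 passed, 63 higher and 55 lower, where 72.0% of all genes passed (37.5% higher, 34.4% lower), and in wild-type cells 119 passed, 66 higher and 53 lower, where 70.3% of all genes passed (36.8% higher, 33.5% lower). In both genotypes 60 members rose (37.7%, against 33.8% of all genes) and 47 fell (29.6%, against 30.1% of all genes). Ptprc fell by 1.49 on the log2 scale in Il6ra-/- cultures, SE 0.09 (adjusted p = 1.26e-07), and by 1.61 in wild-type cultures, SE 0.09 (adjusted p = 7.2e-08). Of the 7 listed genes tested, Ptprc, Cd55, Mr1, Cxcr4 and Lax1 fell in both. Il24 rose in both, by 6.55 ± 1.61 in Il6ra-/- cultures (adjusted p = 0.00549) and 6.10 ± 1.68 in wild-type cultures (adjusted p = 0.0102). Gpr25 rose in wild-type cultures by 3.93 ± 1.38 (adjusted p = 0.0256) and was at 0.83 ± 0.998 in Il6ra-/- cultures. Il24 and Gpr25 were near the floor, with mean log2 CPM of -1.865 and -1.51 in this fit. The size of their fitted changes is therefore uncertain. Mr1 encodes the molecule that presents vitamin B metabolites to MAIT cells, and Cxcr4 the receptor of the chemokine CXCL12. Cd55 had 1.31 and 1.42 CPM in Il6ra-/- cultures, against 118 and 115 CPM in Il6ra-/- naive cells, and 1.67 and 2.19 CPM in wild-type cultures, against 80.9 and 106 CPM in wild-type naive cells, without overlap.

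Rgs16 had 540 and 547 CPM in Il6ra-/- cultures, against 3.36 and 3.36 CPM in Il6ra-/- naive cells, a rise of 7.34 ± 0.27 (adjusted p = 2.39e-09), and rose by 7.41 ± 0.27 in wild-type cultures (adjusted p = 2.42e-09). Rgs1 and Rgs8 also rose in both, Rgs2 did not pass in either, and of 8 RGS genes tested outside the window 1 rose and 5 fell in Il6ra-/- cultures, against 3 and 5 in wild-type cultures. Of the 12 p53, cell cycle and growth arrest genes 8 rose and 4 fell in each genotype. Over all genes, for this and every other list, 37.5% rose and 34.4% fell in Il6ra-/- cultures, against 36.8% and 33.5% in wild-type ones. Those that rose included Fam129a, a stress-regulated gene, by 5.04 ± 0.24 in Il6ra-/- (adjusted p = 1.44e-08) and 4.96 ± 0.24 in wild-type cultures (adjusted p = 1.67e-08), and the mitotic genes Aspm and Kif14. Btg2, Ccnt2, Mdm4 and Ier5 fell in both, and Btg2 had 22.4 and 23.0 CPM in Il6ra-/- cultures, against 318 and 275 CPM in Il6ra-/- naive cells.

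Ikbke, a kinase of interferon induction, fell by 4.03 on the log2 scale in Il6ra-/- cultures, SE 0.10 (adjusted p = 2.27e-10), and by 3.82 in wild-type cultures, SE 0.09 (adjusted p = 2.99e-10). Mapkapk2, the kinase below p38, rose in both, and 4 of 16 kinase and phosphatase genes rose and 7 fell in Il6ra-/- cultures, against 4 and 5 in wild-type cultures. Atp2b4, a plasma membrane calcium pump, rose by 4.03 ± 0.22 in Il6ra-/- (adjusted p = 3.69e-08) and 4.50 ± 0.23 in wild-type cultures (adjusted p = 2.24e-08), and 6 of 8 transporter genes rose in both genotypes. Kif21b, a kinesin of T cells, and Cep350, a centrosome protein, fell in both, as did Actr3, while Lad1 and Nav1 rose in both. Ctse fell in both, by 3.17 in Il6ra-/- cultures, SE 0.28 (adjusted p = 1.67e-06), and by 3.11 in wild-type cultures, SE 0.28 (adjusted p = 2.01e-06). Stx6, a trafficking protein of the Golgi, rose in both, as did the deubiquitinase gene Uchl5, and Elk4, a transcription factor gene, fell in both.

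Of the 158 members tested in both parts, 13 were higher in Il6ra-/- colon cells than before transfer and lower in Il6ra-/- hyper-IL-6 cultures than in naive cells (8.23%, against 7.06% of all genes), among them Ptprc, Lax1, Btg2, Ier5 and Tor1aip1. The reverse held for 12 (7.59%, against 8.69% of all genes), among them Phlda3, Aspm, Kif14 and Dars. Arpc5, Ptgs2 and Rgs1, 3 members (1.90%, against 1.99% of all genes), were higher in both. In wild-type cells 18 were higher in colon and lower in culture (11.4%, against 8.63% of all genes), 13 the reverse, with Rgs16 and Rgs8 among them (8.23%, against 9.85% of all genes), and 9 higher in both (5.70%, against 2.48% of all genes). These shares were not tested against those of all genes. Of 22 T cell receptor signalling genes near CD45 in function and outside the window, 7 rose and 0 fell in Il6ra-/- colon cells, against 8 and 2 in wild-type ones, and 4 rose and 15 fell in Il6ra-/- hyper-IL-6 cultures, against 4 and 16 in wild-type ones. Over all genes 13.8% rose and 13.2% fell in Il6ra-/- colon cells, against 17.1% and 15.8% in wild-type ones, and 37.5% rose and 34.4% fell in Il6ra-/- cultures, against 36.8% and 33.5% in wild-type ones. The list's median log2 fold change was 0.60 in Il6ra-/- and 0.23 in wild-type colon cells, and -1.02 in Il6ra-/- and -1.14 in wild-type cultures.

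Between the wild-type cultures given hyper-IL-6 and those given IL-6, 0 of 159 members passed edgeR's quasi-likelihood test, where 0.0% of all genes passed, 2 had an unadjusted p under 0.05 (1.51% of all genes) and DESeq2 called 0 (0.00421% of all genes). Rgs16 had 586 and 555 CPM with hyper-IL-6 and 567 and 494 CPM with IL-6, and Ctse 3.48 and 4.40 CPM with hyper-IL-6 and 4.44 and 3.62 CPM with IL-6. The groups overlapped for both genes.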

How the data were processed

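Messenger RNA was sequenced from 10 transfer and 10 culture libraries. The deposited values are raw counts of reads per gene, which the authors made with STAR 2.5.3, SAMtools 0.1.18 and HTSeq 0.7.2 on GRCm38/mm10, per the submitters' processing notes, which also list DESeq2 1.18.1 and R 3.4.3. The sources used here do not give the strand setting of the counting. Reads assigned to no gene made up 18.1 to 31.9% and ambiguous reads 0.526 to 0.844% per library, and these rows stayed out of library sizes and tests.

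Gene IDs were joined to GENCODE M21, where 37607 of 39179 matched. Each part was fitted alone with edgeR 4.0.16 in R 4.3.3 (TMM scaling, filterByExpr by group, quasi-likelihood test, group as the only term), with p-values adjusted by Benjamini-Hochberg over all genes tested and a threshold of 0.05. Log2 fold changes are Il6ra-/- over wild type, colon over before transfer, or cultured over naive, with SE. DESeq2 1.42.0, other scaling, other filters, an experiment term, the replicate number as a block and each library left out were alternatives. Blocks within a stage, fits without 2 doubted libraries and the fit of all 20 libraries together were added after the data were seen. The edgeR test was run on simulated independent counts for genotype comparisons within each part. That run did not cover the stage and culture changes, the blocks or libraries that vary together.

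Same-numbered colon libraries of both genotypes deviated together (correlations 0.58, 0.237 and 0.183), as did those before transfer (0.43). With 2 libraries a group the deviations mirror each other, so 0.43 is a single value. The numbers were taken as pairs within a stage from these correlations. The lowest, 0.183, is close to the highest in the culture part, 0.156, where no pairs were taken. Calls made only with the block rest on this choice. The labels do not state that libraries of one group came from separate cultures or animals. The p-values then reflect only how these libraries differ among themselves, which may be technical.

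The members and gene lists were chosen with earlier results of these data known. Named members are Ptprc, Ctse, Nav1, Lad1, Rgs16, the members with the largest changes among those that passed a genotype comparison, and up to 4 members of each list by mean CPM. Other members named in the text, such as Npl, Gm4793, Gm5532, B3galt2, BC034090, Phlda3, Gpr25, Il24, Elf3, Ptgs2, Aspm, Kif14, Ccnt2, Mr1 and those without group overlap, were named after their values were seen. Some genes of the window are not reported here. Promoter sequences are from RefSeq.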

Additional observations from a re-analysis of the deposited data

Results flagged for a closer look

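Ctse is listed because its genotype difference was further from 0 in the transfer part than in the culture part. In the fit of all 20 libraries, the difference averaged over colon and before transfer minus that averaged over naive and hyper-IL-6 cells was log2 -3.51, SE 0.39, and without both doubted libraries it was -3.14. The interaction term of edgeR's quasi-likelihood test put it on the list. The transfer side of the contrast was used to propose the window and the fit was added after the parts were seen to differ, so the value is a description, with no p, and supports nothing. Culture dose, stimulation, reporter gating and CD45 allele cannot be told apart here.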

How the results depend on the processing

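Counts of members that passed depended on the fit. For colon the count was 4 as reported, 9 with DESeq2, 8 with the compared groups only, 12 with these and the replicate block, and 2 without both doubted libraries. Before transfer, against 0, it was 6 with no filter on low counts, 8 with DESeq2, 1 with the replicate block, 1 with an experiment term, 3 with the block within the stage and 8 with the compared groups only and the block. Averaged over stages, against 6, it was 12 with no filter, 11 with DESeq2, 3 with the replicate block and 1 without both doubted libraries. Genotype by stage gave 1 with no filter and 1 with DESeq2. In naive cells the count was 7 with no filter, 1 with DESeq2 and 1 with the compared groups only and the block, and in hyper-IL-6 cultures 1 with no filter and 3 with the compared groups only and the block. The culture average gave 2, and genotype by culture 5, with no filter. The fit of all 20 libraries gave 7 with no filter and 6 with DESeq2. The cause of these shifts was not tested.

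Leaving out 1 library at a time, the count ran from 0 to 4 in colon, 0 to 31 before transfer, 2 to 22 averaged over stages, 0 to 16 for genotype by stage, 37 to 68 for Il6ra-/- and 49 to 91 for wild-type colon against before transfer, 0 to 10 in naive cells, 0 to 1 for the culture average, 0 to 6 for genotype by culture, 103 to 120 for Il6ra-/- and 102 to 119 for wild-type hyper-IL-6 against naive, and 1 to 16 in the fit of all libraries; it stayed at 0 in hyper-IL-6 cultures and against IL-6. The highest counts before transfer, averaged over stages, for genotype by stage and in the fit of all libraries came without wild-type library 0 before transfer, and those in naive cells and for genotype by culture without wild-type naive library 2. A lone library left in a group is assumed to vary like the others. Without wild-type library 0 before transfer, that lone library is number 1, which earlier work doubted. In the culture part same-numbered libraries correlated at 0.156 or less, so their numbers were not taken as pairs.

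Over 159 results for single members and 2919 alternatives, 2625 kept direction and side of the threshold, 221 fell below it and 73 passed it, and none reversed. Stage and culture changes entered only if they passed in the main fit. Among genotype calls in colon, Ctse stayed past the threshold in 15 alternatives and fell below it in 5. Nav1 did so in 13 and 7, Ptprv in 12 and 8, and Gm4793 in 9 and 11. Averaged over stages the numbers were 18 and 0 for Ctse, 17 and 1 for Nav1 and 12 and 6 for Npl. They were 7 and 11 for Gm5532 and for Gm4793, and 4 and 14 for Glul. Each transfer group holds 2 or 3 libraries, which limits the differences that can be called.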
